A study of Homo sapiens with 6 samples.

Results

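The genes described are the nuclear-encoded subunits and assembly factors of respiratory complex I, the NADH:ubiquinone oxidoreductase of the mitochondrial inner membrane. They were taken as the protein-coding genes of GENCODE 29 whose symbol begins with NDUF, without NDUFA4 and NDUFA4L2, plus ACAD9, ECSIT, TMEM126A, TMEM126B, TIMMDC1, FOXRED1, NUBPL, TMEM186 and COA1. This rule gave 55 genes of the 58096 gene rows in the count table: 37 subunits, 17 assembly factors and the readthrough gene NDUFC2-KCTD14. The study measured poly(A) RNA by sequencing in SH-SY5Y, a human neuroblastoma line that the labels list as a neuronal progenitor. The cells received 2 ul of an adenovirus carrying PGC-1a (3 libraries, called PGC1A here) or of an adenovirus carrying GFP (3 libraries, called GFP), and RNA was taken after 48 hours. Both groups therefore carried virus, the labels give no titre, promoter or share of infected cells, and none of the 6 libraries was without virus. Nothing in the labels says that a group's libraries are separate cultures, and the p-values below therefore reflect no more than the spread among the samples sequenced, possibly a technical one.

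Complex I takes electrons from NADH, passes them along a chain of iron-sulphur clusters to ubiquinone, and uses the energy to pump protons. The N module at the tip of the matrix arm binds NADH, the Q module below it reduces ubiquinone, and the ND1, ND2, ND4 and ND5 modules form the proton-pumping membrane arm. Core subunits carry the chemistry and are shared with bacteria, supernumerary subunits surround them, and assembly factors build the modules without staying in the finished enzyme. PGC-1alpha, the product of PPARGC1A, is a transcriptional coactivator known to work with ERR-alpha (ESRRA), NRF1 and GABP at genes of mitochondrial respiration.

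Gene counts totalled 24988743 in the shallowest library and 31762496 in the deepest, and the dispersion common to all genes corresponded to a biological coefficient of variation of 2.21%. Values below are CPM, read counts relative to the library's total, scaled with TMM factors, and every fold change is PGC1A over GFP on the log2 scale with its standard error (SE). PPARGC1A, the gene carried by the virus, had 4088, 3971 and 4065 CPM in the PGC1A libraries, against 3.49, 3.95 and 3.79 CPM in the GFP libraries, which matches the labels. Of all genes tested, 40.9% were called higher and 42.1% lower, and the marker counts that follow stand beside these shares. Of 10 noradrenergic neuroblastoma markers, 1 was called higher and 8 lower. Their summed level was 932 to 944 CPM in PGC1A against 1445 to 1453 CPM in GFP. TH, the defining enzyme of catecholamine synthesis, lay under 1 CPM and was not tested. Of 10 mesenchymal-type markers, 0 were called higher and 9 lower, with sums of 1706 to 1735 CPM in PGC1A against 3449 to 3501 CPM in GFP. Of 6 Schwann cell markers, 1 was called higher and 2 lower, with sums of 1.65 to 2.17 CPM in PGC1A against 7.72 to 8.73 CPM in GFP. The other Schwann cell markers, SOX10, S100B and CDH19, were not tested, and SOX10 had 0 counts in every library. The part of these marker differences in the complex I results was not tested. In bulk RNA, a change in the share of cells of 1 state and a change in RNA per cell cannot be told apart.

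Transcripts of the 55 genes took 0.826%, 0.813% and 0.803% of all gene counts in the PGC1A libraries, against 0.275%, 0.279% and 0.272% in the GFP libraries. The complex I subunits encoded in mitochondrial DNA, described below, are not in these shares. The groups did not overlap, and the mean shares were 0.814% ± 0.0118 in PGC1A and 0.275% ± 0.0033 in GFP (SD, n = 3 each). Of the 55 genes, 54 were tested, and NDUFC2-KCTD14 had 0 counts in all 6 libraries. By edgeR's quasi-likelihood test with Benjamini-Hochberg adjustment over 19343 genes (threshold 0.05), 50 of the 54 were called higher in PGC1A, beside 40.9% of all genes tested, and 3 were called lower, beside 42.1%. A rise of at least 2-fold was found for 40 of the 54, beside 19.0% of all genes. All 3 PGC1A libraries lay above all 3 GFP libraries for 51 of the 54, beside 40.9% of all genes. They lay below for 3 of the 54, beside 8269 of the 19343 genes tested. Groups that did not overlap were thus common over all genes, in both directions. The median log2 fold change was 1.70 for the 54 genes, with a range of -0.66 to 2.90, and -0.03 for all genes tested.

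The groups of genes differed in size of change. The 37 subunits had a median log2 fold change of 1.97, with 35 called higher, 1 lower and 1 not called. The 17 assembly factors had a median of 1.03, with 15 called higher and 2 lower. At least 2-fold rises were found for 31 of the 37 subunits and 9 of the 17 assembly factors, beside 19.0% of all genes tested. These counts of calls, and those for modules, factor groups and related genes below, stand beside 40.9% of all genes tested called higher and 42.1% called lower. The mean log2 CPM of the subunits minus that of the assembly factors was 0.81, 0.82 and 0.84 in the PGC1A libraries, against 0.13, 0.10 and 0.13 in the GFP libraries. The difference between the groups was 0.70 on the log2 scale, and no PGC1A library came near a GFP library in this measure. The 7 core subunits encoded in the nucleus had a median of 2.32 and the 30 supernumerary subunits one of 1.84.

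**Figure D1:**
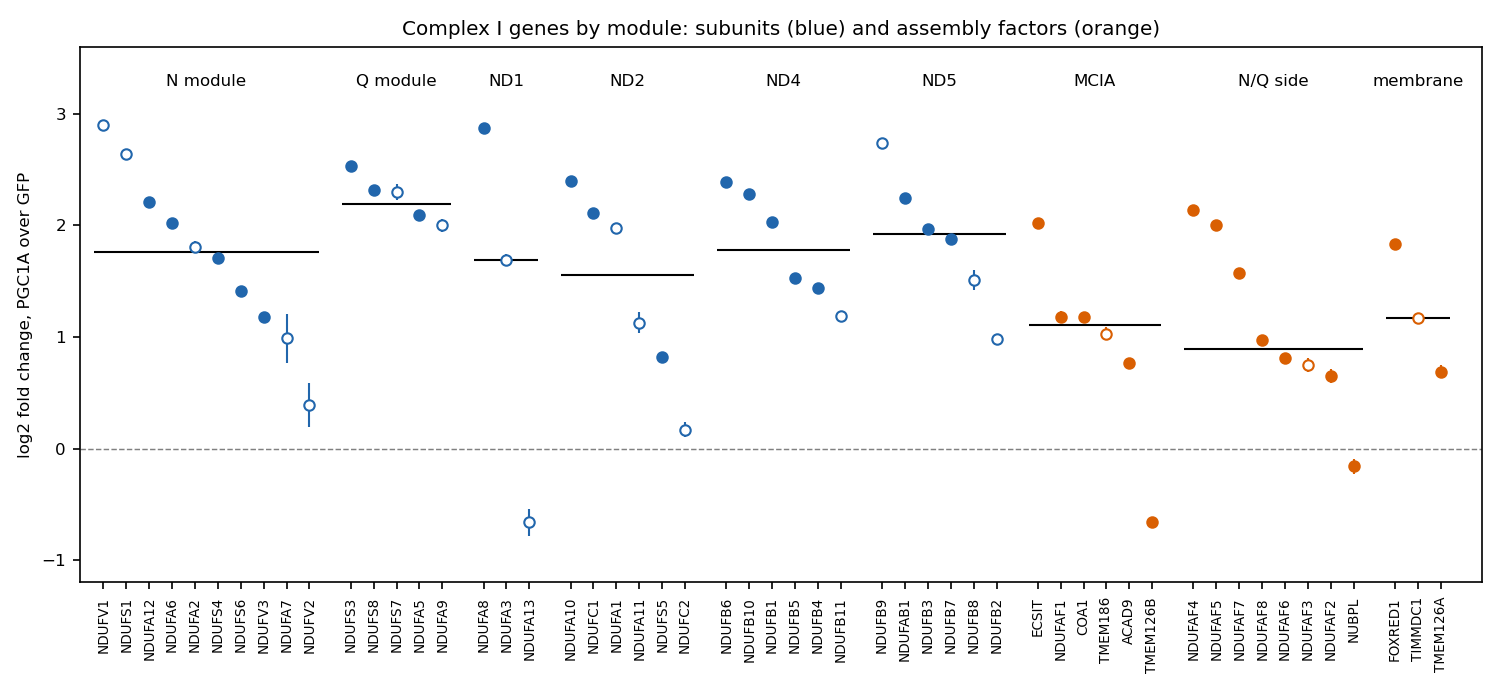
Log2 fold change of PGC1A over GFP for 53 of the 54 tested genes (points), ordered by module of the complex and by group of assembly factors, with vertical bars for the SE, horizontal lines for the medians of all tested genes of a group, and open points for genes with under 90% of transcript bases outside the exons of other genes. The Q module points lie between 2.00 and 2.53, whereas NDUFA13, TMEM126B and NUBPL lie below 0.

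The promoter windows of 6 of these genes are shown because their genes span the range of the responses described below: NDUFV1 and NDUFS3 rose strongly, NDUFB4 holds the single ERR-type match among the genes with a window, ACAD9 rose little, and TMEM126A and TMEM126B are neighbours that moved in opposite directions. Each line gives the 250 bases before the RefSeq transcription start, 5′ to 3′ on the plus strand, from RefSeq's annotation of GRCh38.p14. Capitals mark exact matches, on either strand and lying wholly before the start, to TNAAGGTCA (the site type of ERR-alpha), GCGCANGCG (NRF1) or CCGGAAG (GABP and other ETS factors). The windows lie at chr11:67606686-67606935 (NDUFV1), chr11:47578824-47579073 (NDUFS3), chr3:120596086-120596335 (NDUFB4), chr3:128879370-128879619 (ACAD9), chr11:85647717-85647966 (TMEM126A) and chr11:85628323-85628572 (TMEM126B, the first of 2 RefSeq windows).
NDUFV1: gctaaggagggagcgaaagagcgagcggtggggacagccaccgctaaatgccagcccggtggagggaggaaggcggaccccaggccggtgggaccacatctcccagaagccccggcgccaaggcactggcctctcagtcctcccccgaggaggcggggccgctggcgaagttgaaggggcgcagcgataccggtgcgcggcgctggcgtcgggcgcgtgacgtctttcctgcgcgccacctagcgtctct
NDUFS3: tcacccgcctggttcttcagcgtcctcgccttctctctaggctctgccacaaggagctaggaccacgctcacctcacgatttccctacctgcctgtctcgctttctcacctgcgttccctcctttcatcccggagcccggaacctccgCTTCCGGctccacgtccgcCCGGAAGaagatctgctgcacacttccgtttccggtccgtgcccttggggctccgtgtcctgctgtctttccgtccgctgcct
NDUFB4: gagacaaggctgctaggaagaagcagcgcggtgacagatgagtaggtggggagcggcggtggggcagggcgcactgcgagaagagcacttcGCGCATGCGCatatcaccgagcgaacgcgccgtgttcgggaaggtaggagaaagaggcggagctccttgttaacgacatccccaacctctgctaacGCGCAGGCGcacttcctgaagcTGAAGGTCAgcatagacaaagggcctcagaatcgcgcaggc
ACAD9: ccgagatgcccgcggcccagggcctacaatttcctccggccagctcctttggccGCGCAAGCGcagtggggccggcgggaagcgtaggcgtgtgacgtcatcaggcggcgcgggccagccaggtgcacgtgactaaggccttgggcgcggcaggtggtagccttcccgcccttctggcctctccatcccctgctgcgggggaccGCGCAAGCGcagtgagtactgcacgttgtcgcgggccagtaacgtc
TMEM126A: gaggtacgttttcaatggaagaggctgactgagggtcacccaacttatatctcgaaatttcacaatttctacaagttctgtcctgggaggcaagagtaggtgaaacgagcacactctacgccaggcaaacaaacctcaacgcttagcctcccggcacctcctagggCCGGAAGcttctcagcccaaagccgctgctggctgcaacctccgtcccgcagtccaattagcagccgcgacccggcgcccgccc
TMEM126B: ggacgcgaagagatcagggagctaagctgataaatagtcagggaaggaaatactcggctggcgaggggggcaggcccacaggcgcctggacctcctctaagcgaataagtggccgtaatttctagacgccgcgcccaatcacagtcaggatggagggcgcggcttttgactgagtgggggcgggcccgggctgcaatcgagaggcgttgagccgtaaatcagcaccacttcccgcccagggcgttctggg

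The NDUFV1 and TMEM126B windows held no match in capitals. NDUFS3 held a pair of CCGGAAG matches, 1 on each strand, starting at positions -102 and -83 from the transcription start. NDUFB4 held TGAAGGTCA at -41 and NRF1-type matches at -159, -158 and -63, of which the first and second are 1 stretch read on both strands. A further NRF1-type match of NDUFB4 at -8 runs across the start and is left in lower case. ACAD9 held NRF1-type matches at -196 and -46, and TMEM126A held 1 CCGGAAG match at -84.

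The N module carries the NADH-binding site, and it contained both the gene that rose most and the core gene that was not called. NDUFV1, which binds NADH and the flavin cofactor, had 681, 682 and 687 CPM in PGC1A, against 95.2, 92.8 and 87.5 CPM in GFP. Its libraries lay far apart between the groups and close together within them, with a log2 fold change of 2.90 (SE 0.03, edgeR adjusted p = 1.66e-54). NDUFS1, the large subunit that carries iron-sulphur clusters of this module, had 857, 832 and 813 CPM in PGC1A, against 131, 136 and 133 CPM in GFP, a log2 fold change of 2.64 (SE 0.03, edgeR adjusted p = 7.90e-54). NDUFA12, NDUFA6, NDUFA2, NDUFS4, NDUFS6 and NDUFV3 were called higher with log2 fold changes of 2.21, 2.02, 1.81, 1.71, 1.41 and 1.18. NDUFA7 had 1.31, 2.17 and 2.16 CPM in PGC1A, against 1.21, 0.573 and 1.07 CPM in GFP, and rose by 0.99 (log2, SE 0.22, edgeR adjusted p = 1.20e-04), although its lowest PGC1A library lay just above its highest GFP library.

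NDUFV2, which carries an iron-sulphur cluster of the N module, was the core subunit that was not called. It had 1.57, 1.25 and 1.53 CPM in PGC1A, against 1.07, 0.996 and 1.24 CPM in GFP. The groups all but touched, and the log2 fold change was 0.39 (SE 0.20, edgeR adjusted p = 0.0635). These values rest on 42, 33 and 39 counts in PGC1A and 30, 33 and 44 counts in GFP. The processed pseudogene NDUFV2P1, described at the end, had 562 counts in all against 221 for NDUFV2. How reads were divided between the gene and this copy cannot be read from the counts. Without PGC1A replicate 2 the log2 fold change was 0.50 (edgeR adjusted p = 0.0355), and without GFP replicate 3 it was 0.48 (edgeR adjusted p = 0.0485). With DESeq2-type size factors it was 0.43 (edgeR adjusted p = 0.0429). Other alternatives left it uncalled. Several of them, such as limma-voom and the replicate block, kept it at 0.39. Some moved it down, to 0.32 without GFP replicate 2 (edgeR adjusted p = 0.184), 0.26 with upper-quartile factors (0.208) and 0.06 with total counts (0.769). DESeq2 gave 0.43 with an adjusted p of 0.138.

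Overlap with other genes bears on which reads could be counted. For NDUFV2, 17.1% of the bases of its principal transcript lay outside the exons of every other gene in the annotation, the rest being covered by AP005263.1. That share is called the countable share here, and reads shared between genes largely went uncounted in this table. Of 707 genes lying wholly under exons on the other strand, 17 (2.40%) had any count, and of 806 lying wholly under exons on the same strand, 44 (5.46%) had any, against 62.4% of 41238 genes that share no base. Reads of a gene and of an antisense partner were thus not told apart, although the library preparation kept the strand. The number of reads lost from any 1 gene cannot be read from the table. A low countable share did not always go with a low level: NDUFB2, at 16.6%, averaged 96.4 ± 5.30 CPM in PGC1A and 48.8 ± 1.78 CPM in GFP (SD, n = 3 each). Against exons on the gene's own strand alone, however, the share was 100% for NDUFB2 and 17.1% for NDUFV2. The next lowest own-strand shares among subunits were 24.1% (NDUFA7), 28.3% (NDUFB8), 33.0% (NDUFA11) and 55.9% (NDUFA13). Mean levels of these genes, in that order, were 1.88, 11, 10.1 and 3.35 CPM in PGC1A. In GFP they were 0.951, 3.85, 4.58 and 5.27 CPM. The part of overlap in the low counts of NDUFV2 was not tested.

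Of the 55 genes, 20 had less than 90% of their bases countable and 6 had less than 50%, NDUFC2-KCTD14 among them. The 21 subunits with at least 90% countable were all called higher. Their log2 fold changes ran from 0.82 to 2.87 around a median of 2.03, and 20 of them rose at least 2-fold. The 16 subunits below 90% had a median of 1.60, with 14 called higher, 1 lower and 1 not called. The 5 tested subunits below 50% were NDUFV2, NDUFB2, NDUFA7 (21.3%), NDUFB8 (28.3%) and NDUFA11 (33.0%), and their median was 0.99. The 14 assembly factors with at least 90% countable had a median of 1.08, with 12 called higher and 2 lower. The subunits thus had the larger median also among genes whose bases were nearly all countable.

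**Figure D2:**
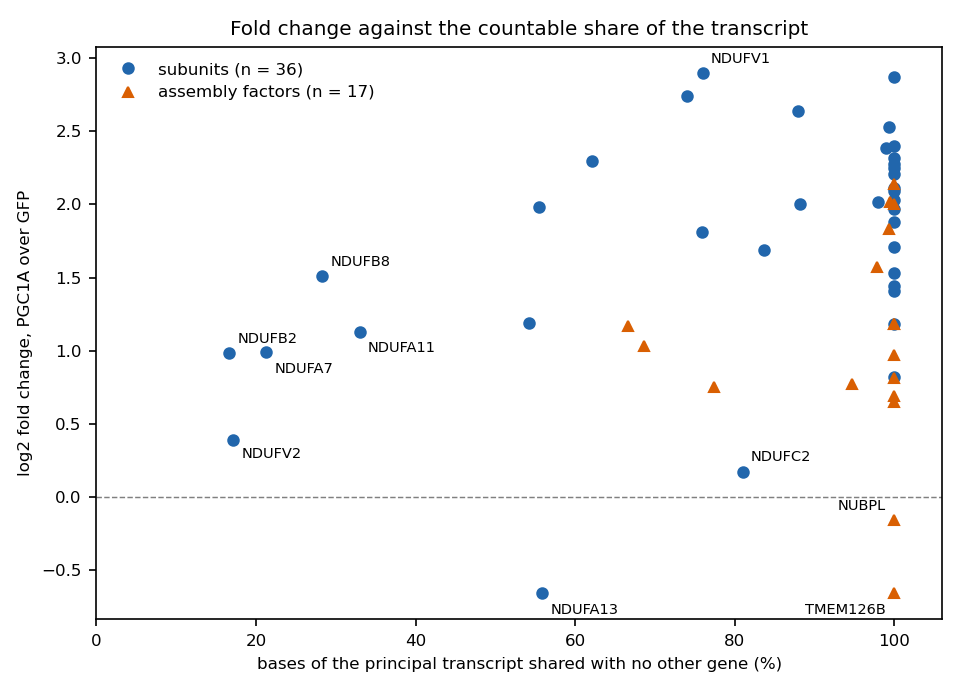
Log2 fold change of PGC1A over GFP (vertical axis) against the share of bases of the principal transcript that lie outside the exons of other genes (horizontal axis, percent), for subunits and assembly factors. NDUFV2 and NDUFA13, which were not called or called lower, lie at 17.1% and 55.9%, while TMEM126B and NUBPL, which were called lower, lie at 100%, and all plotted subunits at 90% or more lie above 0.

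The Q module passes electrons to ubiquinone, and its 6 subunits were all called higher, and their median log2 fold change was 2.19. NDUFS3, a core subunit whose window holds the paired ETS-type matches shown above, had 271, 267 and 261 CPM in PGC1A, against 45.8, 48.6 and 43.8 CPM in GFP, a log2 fold change of 2.53 (SE 0.03, edgeR adjusted p = 1.59e-49). NDUFS8, which carries a pair of iron-sulphur clusters, had 174, 168 and 162 CPM in PGC1A, against 33.6, 35.4 and 32.2 CPM in GFP, a log2 fold change of 2.32 (SE 0.04, edgeR adjusted p = 2.98e-45). NDUFS7, which carries the last cluster before ubiquinone, had 27.7, 23.9 and 27.3 CPM in PGC1A, against 5.85, 5.13 and 5.14 CPM in GFP, a log2 fold change of 2.30 (SE 0.07, edgeR adjusted p = 3.65e-32). None of these groups overlapped, which was common over all genes tested, as given above. The supernumerary NDUFA5 and NDUFA9 rose by 2.09 and 2.00 on the log2 scale.

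The ND1 and ND2 modules form the part of the membrane arm nearest the matrix arm, and they held the widest range among subunits. NDUFA8, a subunit facing the intermembrane space, had 299, 281 and 270 CPM in PGC1A, against 38.8, 40.2 and 37.4 CPM in GFP, a log2 fold change of 2.87 (SE 0.04, edgeR adjusted p = 1.20e-40). NDUFA10, a membrane-arm subunit on the matrix side, had 468, 469 and 468 CPM in PGC1A, against 88.4, 89.5 and 88.8 CPM in GFP, a log2 fold change of 2.40 (SE 0.03, edgeR adjusted p = 4.27e-52). NDUFA3 rose by 1.69, NDUFC1 by 2.11, NDUFA1 by 1.98 and NDUFA11 by 1.13 on the log2 scale. NDUFS5 had 356, 347 and 338 CPM in PGC1A, against 191, 203 and 195 CPM in GFP, and its rise of 0.82 (log2, SE 0.03, edgeR adjusted p = 5.01e-32) was the smallest among subunits with at least 90% countable bases.

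NDUFA13, also called GRIM-19, was the subunit that was called lower. It had 2.54, 3.42 and 4.08 CPM in PGC1A, against 4.92, 5.88 and 5.0 CPM in GFP, a log2 fold change of -0.66 (SE 0.12, edgeR adjusted p = 5.23e-06). The groups did not overlap, but the values rest on 68, 90 and 104 counts in PGC1A and 138, 195 and 178 counts in GFP. Of its bases, 55.9% were countable, beside 55.5% of those of NDUFA1, which was called higher. Against exons on the gene's own strand alone, the shares were 55.9% for NDUFA13 and 100% for NDUFA1. YJEFN3 and AC011448.1, which overlap NDUFA13 on the same strand, had log2 fold changes of -1.47 and -1.32. Whether overlap contributed to the lower call was not tested. Against a fold of 1.5 (edgeR glmTreat), NDUFA13 was not called (adjusted p = 0.204). NDUFC2, a small membrane subunit that shares its locus with the readthrough gene, had 12.4, 10.5 and 11.4 CPM in PGC1A, against 10.1, 10.2 and 10.1 CPM in GFP. Its log2 fold change of 0.17 (SE 0.07, edgeR adjusted p = 0.0281) was the smallest rise that was called, and its call and direction depended on the scaling. With total counts it was -0.16 (edgeR adjusted p = 0.0419), and with upper-quartile factors it was 0.04 (edgeR adjusted p = 0.575). The call was also lost without PGC1A replicate 1 (log2 0.12, edgeR adjusted p = 0.181), GFP replicate 1 (0.16, adjusted p = 0.069) or GFP replicate 3 (0.16, adjusted p = 0.0777).

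The ND4 and ND5 modules make up the distal pump, and their 12 subunits were all called higher. NDUFB9, an ND5-module subunit of the LYR protein family, had 427, 396 and 376 CPM in PGC1A, against 60.4, 61.0 and 57.8 CPM in GFP, a log2 fold change of 2.74 (SE 0.04, edgeR adjusted p = 4.25e-19). NDUFB6 had 206, 190 and 189 CPM in PGC1A, against 37.6, 36.3 and 37.9 CPM in GFP, a log2 fold change of 2.39 (SE 0.03, edgeR adjusted p = 4.07e-46). Both genes had groups that lay far apart. The smallest changes of the ND4 and ND5 modules were in NDUFB11 and NDUFB2. NDUFB11 had 121, 109 and 108 CPM in PGC1A, against 47.7, 51.4 and 48.9 CPM in GFP, a log2 fold change of 1.19 (SE 0.04, edgeR adjusted p = 7.49e-25). NDUFB2 had 102, 96.4 and 91.0 CPM in PGC1A, against 47.9, 50.9 and 47.8 CPM in GFP, a log2 fold change of 0.98 (SE 0.04, edgeR adjusted p = 1.30e-27). The ND4-module genes NDUFB10, NDUFB1, NDUFB5 and NDUFB4 rose by 2.28, 2.03, 1.53 and 1.44 on the log2 scale. In the ND5 module, NDUFAB1, the mitochondrial acyl carrier protein, rose by 2.25, and NDUFB3, NDUFB7 and NDUFB8 rose by 1.97, 1.88 and 1.51.

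The medians of the modules were 1.76 (N, 10 genes), 2.19 (Q, 6 genes), 1.69 (ND1, 3 genes), 1.55 (ND2, 6 genes), 1.78 (ND4, 6 genes) and 1.92 (ND5, 6 genes). They spanned 0.64 on the log2 scale, and the SD across the genes of a module was between 0.23 (Q) and 1.80 (ND1). The 16 subunits of the matrix arm had a median of 2.01 and the 21 of the membrane arm one of 1.88. Genes were placed in modules from general knowledge of the complex and not from a file, and placements such as that of NDUFA11 vary between sources. Without NDUFA11 the ND2 median was 1.98, which would make ND1 the lowest module. No difference between modules was tested.

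**Figure D3:**
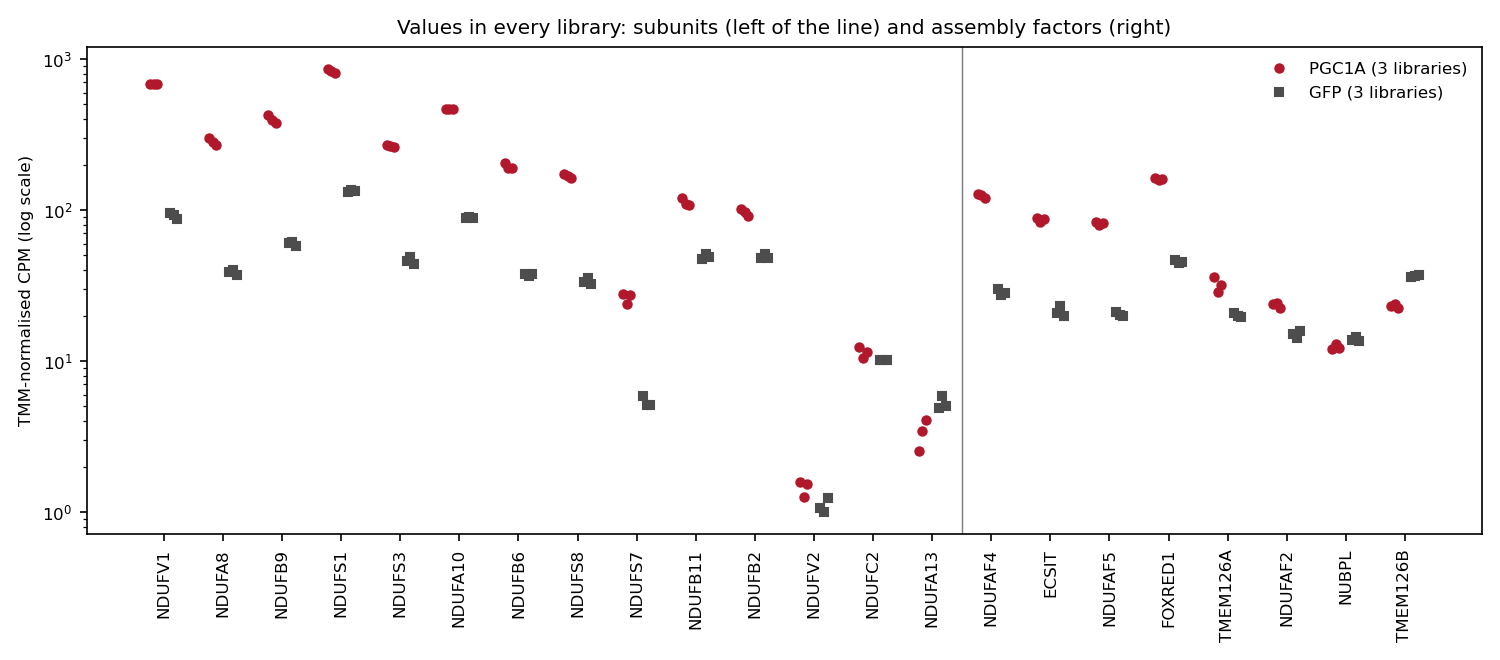
Level of the named genes in each library (vertical axis, TMM-normalised CPM on a log scale), with 1 point per library, PGC1A left of GFP for each gene and assembly factors right of the line. The NDUFV1 points lie at 681 to 687 CPM in PGC1A and 87.5 to 95.2 CPM in GFP, while those of NUBPL and NDUFC2 lie close together.

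The log2 fold changes of the 17 assembly factors ranged from -0.66 to 2.14. The mitochondrial complex I intermediate assembly (MCIA) complex, which builds the ND2 module, was represented by 6 genes, of which 5 were called higher and 1 lower. ECSIT, an MCIA member also known from immune signalling, had 88.5, 83.3 and 86.7 CPM in PGC1A, against 20.7, 23.1 and 20 CPM in GFP, a log2 fold change of 2.02 (SE 0.04, edgeR adjusted p = 2.49e-39). Its partner NDUFAF1 and COA1 both rose by 1.18, and TMEM186 by 1.03. ACAD9, an acyl-CoA dehydrogenase relative that works in MCIA, rose by 0.77. TMEM126B, a membrane protein of MCIA, had 23.1, 23.7 and 22.5 CPM in PGC1A, against 35.8, 36.7 and 37.3 CPM in GFP. All 3 PGC1A libraries lay below all 3 GFP libraries, and the log2 fold change was -0.66 (SE 0.05, edgeR adjusted p = 2.49e-18).

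TMEM126A, the neighbouring relative of TMEM126B that assists the ND4 module, moved the other way. It had 36.1, 28.8 and 32.1 CPM in PGC1A, against 20.8, 20 and 19.5 CPM in GFP, a log2 fold change of 0.69 (SE 0.06, edgeR adjusted p = 2.84e-11). The genes lie on the plus strand of chromosome 11 of GRCh38, TMEM126B at chr11:85628573-85636539 and TMEM126A at chr11:85647967-85656547. The log2 level of TMEM126A minus that of TMEM126B was 0.64, 0.28 and 0.52 in the PGC1A libraries, against -0.78, -0.87 and -0.94 in the GFP libraries. The order of the pair was thus turned round in every library, with a difference of 1.35 between the groups and a two-sided exact permutation p of 0.1. No smaller p is possible with 3 libraries on each side. The pair was chosen for this contrast after its values were seen. Each gene already separated the groups, in opposite directions, so this p was fixed by the choice and tests nothing.

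Factors that build the N and Q modules numbered 8, of which 7 were called higher and 1 lower, and their median log2 fold change was 0.89. NDUFAF4, a Q-module factor, had 128, 126 and 121 CPM in PGC1A, against 29.9, 27.5 and 28.1 CPM in GFP, and rose by 2.14 (log2, SE 0.04, edgeR adjusted p = 5.95e-44). NDUFAF5, which hydroxylates NDUFS7, had 82.8, 79.7 and 81.6 CPM in PGC1A, against 21.0, 20.1 and 19.9 CPM in GFP, and rose by 2.00 (log2, SE 0.04, edgeR adjusted p = 7.89e-41). These rises were of the size seen for Q-module subunits. NDUFAF7, a mitochondrial methyltransferase, rose by 1.57, NDUFAF8 by 0.97, NDUFAF6 by 0.81 and NDUFAF3 by 0.75 on the log2 scale.

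NDUFAF2, an N-module factor and a relative of the subunit NDUFA12, had 23.7, 24.1 and 22.5 CPM in PGC1A, against 15, 14.1 and 15.8 CPM in GFP. Its rise of 0.65 (log2, SE 0.06, edgeR adjusted p = 1.61e-14) stood beside one of 2.21 for NDUFA12. Against a fold of 1.5 (edgeR glmTreat), NDUFAF2 was not called (adjusted p = 0.102). NUBPL, which delivers iron-sulphur clusters to complex I, had 12.1, 12.9 and 12.2 CPM in PGC1A, against 13.7, 14.4 and 13.6 CPM in GFP. The groups did not overlap, but the log2 fold change was small, at -0.16 (SE 0.07, edgeR adjusted p = 0.0234). The call was lost with DESeq2-type size factors (-0.12, edgeR adjusted p = 0.079) and in DESeq2 itself (adjusted p = 0.19). It was also lost without PGC1A replicate 1 (-0.13, edgeR adjusted p = 0.0883), PGC1A replicate 3 (-0.14, adjusted p = 0.0821) or GFP replicate 2 (-0.14, adjusted p = 0.0866).

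The remaining factors act on the membrane arm and late stages. FOXRED1, an oxidoreductase-type factor, had 163, 158 and 161 CPM in PGC1A, against 46.4, 44.6 and 45.0 CPM in GFP, a log2 fold change of 1.83 (SE 0.03, edgeR adjusted p = 9.81e-44). TIMMDC1, a membrane factor for the ND1 module, had 278, 273 and 264 CPM in PGC1A, against 121, 124 and 117 CPM in GFP, a log2 fold change of 1.17 (SE 0.03, edgeR adjusted p = 1.15e-37). Both were well separated between the groups.

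Levels per countable kilobase were compared between genes for the 21 subunits and 14 assembly factors with at least 90% countable bases. The length was that of 1 principal transcript per gene, such as 548 bases for NDUFS5, 4676 for NDUFV3 and 5529 for NDUFAF5. Which transcripts the cells expressed was not tested, and the order of genes depends on this choice. The median level of the subunits was 255 CPM per kilobase in PGC1A against 56.6 in GFP, and that of the assembly factors was 38.2 in PGC1A against 15.7 in GFP. NDUFS5 had the highest level in both groups, 633 ± 15.9 CPM per kilobase in PGC1A and 358 ± 11.1 in GFP (SD, n = 3 each), followed in both by NDUFB10, at 487 ± 32.1 in PGC1A and 101 ± 1.96 in GFP. The next genes in PGC1A were NDUFA12 (363 ± 6.91), NDUFAB1 (356 ± 8.73), NDUFB7 (342 ± 22.0) and NDUFA8 (336 ± 17.7), neighbours whose SDs overlap. NDUFA8 held rank 6 in PGC1A and rank 14 in GFP, where its level was 46.0 ± 1.69. NDUFV3 was the lowest subunit, at 18.8 ± 0.436 in PGC1A and 8.31 ± 0.116 in GFP. NUBPL was the lowest in PGC1A, at 4.07 ± 0.142 against 4.55 ± 0.149 in GFP, and NDUFAF5 was the lowest in GFP, at 14.7 ± 0.286 in PGC1A against 3.68 ± 0.109 in GFP.

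The spread of log2 levels across the 21 subunits was much the same in the groups, with SDs of 1.12, 1.12 and 1.10 in the PGC1A libraries and 1.12, 1.15 and 1.13 in the GFP libraries. Across the 14 assembly factors it was 1.21, 1.17 and 1.19 in the PGC1A libraries and 1.06, 1.05 and 1.07 in the GFP libraries. Across genes, the log2 levels of the groups had a Pearson r of 0.91 (Spearman 0.86) for the 21 subunits and of 0.74 (0.67) for the 14 assembly factors. These are descriptions across genes of the same 6 libraries, which are not independent replicates.

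**Figure D4:**
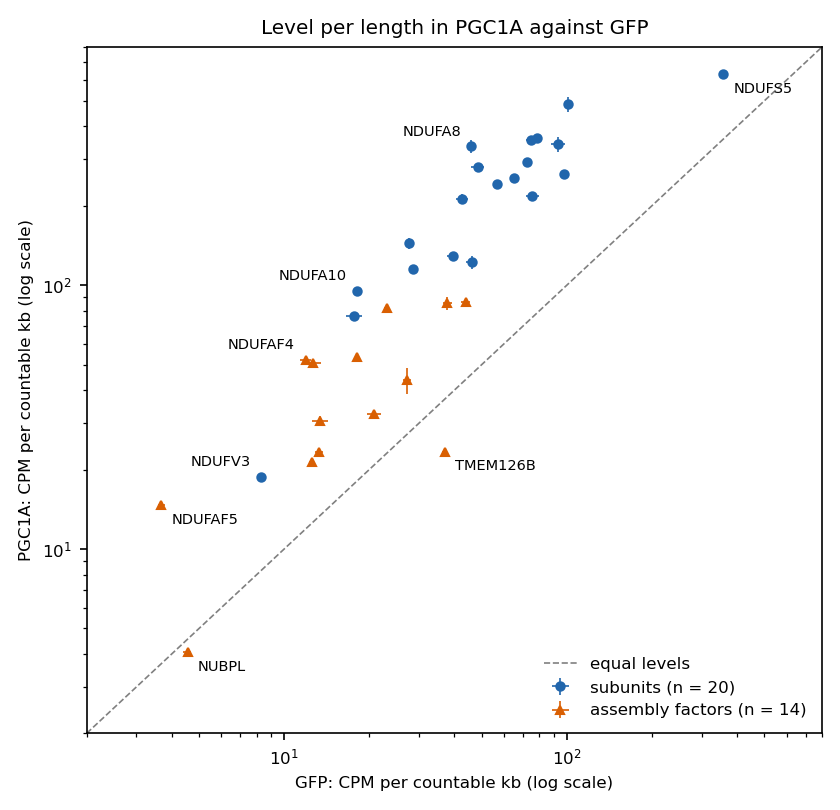
Mean level in PGC1A against mean level in GFP (CPM per countable kilobase, both axes on a log scale) for 20 subunits and 14 assembly factors, with bars for the SD over 3 libraries and a line of equal levels. TMEM126B (23.4 in PGC1A, 37 in GFP) and NUBPL lie under the line, and NDUFA8 (336 in PGC1A, 46.0 in GFP) lies among the genes farthest above it.

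The 7 subunits encoded in mitochondrial DNA, which are transcribed apart from the nucleus, were all called higher by edgeR, with log2 fold changes of 1.01 (MT-ND3) to 1.59 (MT-ND1) and a median of 1.18. MT-ND1 had 10784, 10117 and 9906 CPM in PGC1A, against 3224, 3631 and 3344 CPM in GFP. Subtracting the mean log2 CPM of the mtDNA-encoded subunits from that of the nuclear-encoded ones gave -5.69, -5.64 and -5.63 in the PGC1A libraries, against -6.09, -6.20 and -6.15 in the GFP libraries, a difference of 0.49. Of 6 further genes of complex I assembly outside the rule, 5 were called higher and LYRM2 was not called (log2 fold change -0.03, edgeR adjusted p = 0.347). AIFM1, which works with CHCHD4 in protein import into the intermembrane space, had 642, 639 and 638 CPM in PGC1A, against 73.1, 72.3 and 72.8 CPM in GFP. Its log2 fold change of 3.14 (SE 0.03, edgeR adjusted p = 1.55e-56) exceeded that of every gene in the rule, and CHCHD4, TMEM70, DMAC1 and DMAC2 rose by 1.62, 1.52, 1.44 and 0.81. NDUFA4, left out because it is counted as a subunit of cytochrome c oxidase, rose by 2.05, and its relative NDUFA4L2 by 0.57.

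The transcription factors read in the promoter windows did not move alike. ESRRA had 213, 209 and 204 CPM in PGC1A, against 47.8, 50 and 47.8 CPM in GFP, a log2 fold change of 2.10 (SE 0.03, edgeR adjusted p = 1.14e-46). GABPA, the DNA-binding subunit of GABP, had 69.0, 70.2 and 70.7 CPM in PGC1A, against 42.7, 41.7 and 44.2 CPM in GFP, and rose by 0.71 (log2, SE 0.04, edgeR adjusted p = 1.41e-23). NRF1 had 16.7, 16.4 and 16.7 CPM in PGC1A, against 21.9, 21.8 and 22.1 CPM in GFP, and fell by 0.40 on the log2 scale (SE 0.05, edgeR adjusted p = 4.36e-09). The groups did not overlap for any of the 3 genes. Such separation was common: PGC1A lay wholly above GFP for 7911 and wholly below for 8269 of the 19343 genes tested.

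RefSeq promoter windows, running from 250 bases before to 50 after each start, were found for 48 of the 55 genes. NDUFS5, NDUFB9, NDUFC2, NDUFB5, NDUFAF6 and FOXRED1 were among those with none. Motifs were searched as exact letters on both strands, a gene counting once if any of its windows held a match. GCGCANGCG was found for 12 of the 48 (25%), against 9.02% of 27305 genes with a window. The 12 were 10 of 32 subunits and 2 of 15 assembly factors. CCGGAAG was found for 11 (22.9%), against 12.2% of all genes, and these were 6 of 15 assembly factors and 5 of 32 subunits. AAGATGGCG, the site type of YY1, was found for 7 (14.6%), against 2.14% of all genes, and every match among the 7 began between positions +10 and +26. These shares describe letters in a window and not binding.

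ERR-type matches were rare in these windows. The strict letters TCAAGGTCA were found for 0 of the 48 genes, against 0.43% of all genes, and TNAAGGTCA, which contains them, for 1, NDUFB4 (2.10%), against 1.17%. Among all tested genes with a window, those with TCAAGGTCA had a median log2 fold change of 0.83 and those without it one of -0.03. With TNAAGGTCA it was 0.38, and without it -0.03. For the complex I genes, medians were 2.00 with a GCGCANGCG match and 1.57 without, 1.18 with CCGGAAG and 1.76 without, and 1.71 with AAGATGGCG and 1.75 without. Over all tested genes, these medians were 0.06 and -0.05, 0.11 and -0.08, and 0.22 and -0.04. The complex I medians mix subunits and assembly factors, which held the motifs in unlike shares and differed in median. The part of that mix in these contrasts was not tested. NDUFB4 itself had 183, 172 and 176 CPM in PGC1A, against 64.4, 66.7 and 65.1 CPM in GFP. Its log2 fold change of 1.44 (SE 0.03, edgeR adjusted p = 8.35e-40) lay below the median of the subunits. At least 1 of the motifs was found for 27 of the 48 genes, a count given without the same share over all genes.

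**Figure D5:**
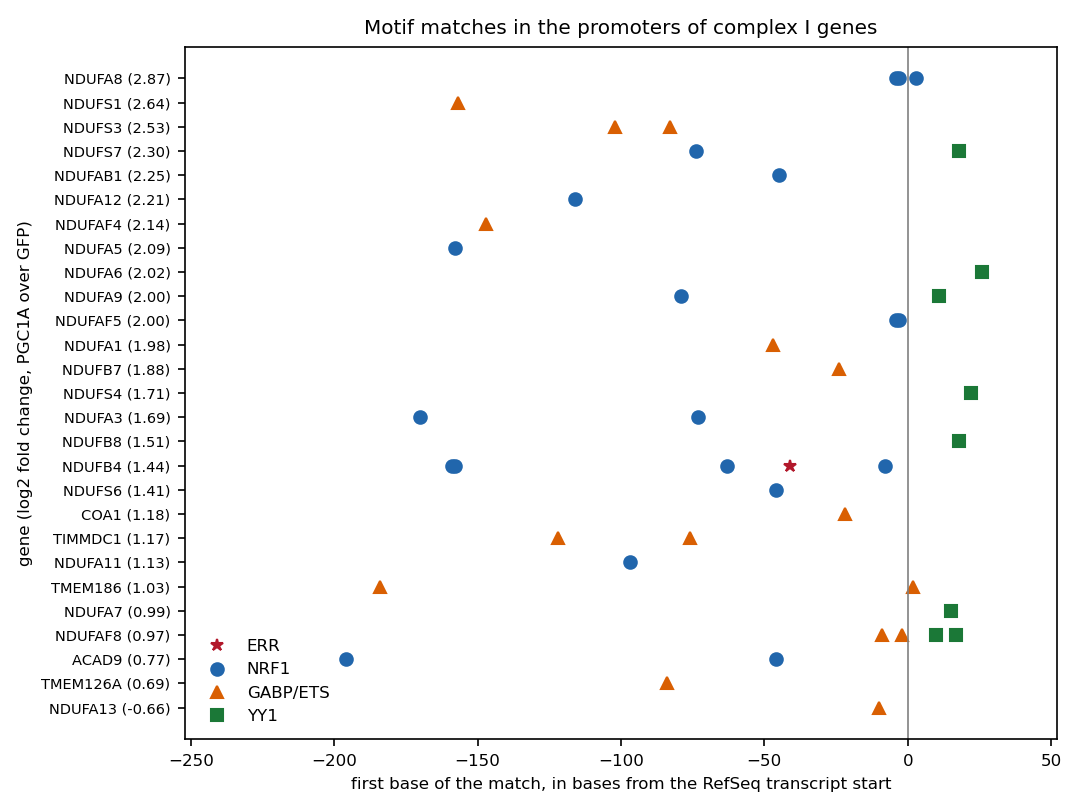
Position of each motif match (horizontal axis, bases from the RefSeq transcription start) for the 27 complex I genes with at least 1 match, coloured by motif. YY1-type matches lie between +10 and +26, and the single ERR-type match lies at -41 in NDUFB4.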

How the data were processed

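Poly(A) RNA from 6 SH-SY5Y libraries was analysed from raw read counts per gene, deposited by the authors as 1 table without normalization. The tools listed in the submitters' processing notes, without order or settings, are HTSeq 0.10.0, STAR 2.6.0c, DRAGEN and DESeq2 1.20.0, on GRCh38. Neither the annotation release nor the strand setting used for counting is given in the sources used here. The summary lines for reads not assigned to 1 gene held 28.8% to 31.1% of the reads per library and were left out of library sizes and tests. Reads with several alignments were 12.8%, 12.9% and 12.4% in the PGC1A libraries and 14.4%, 13.7% and 13.6% in the GFP libraries, so genes with close copies are undercounted. Totals of gene counts per library, given with the results, limit precision most for genes with few counts. No pair of libraries of a group agreed within counting noise (the chi-square of their counts divided by its degrees of freedom was 1.25 to 2.81).

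Gene IDs were matched to GENCODE 29 on GRCh38, which named 57447 of 58096 rows. Groups and replicate numbers came from the titles. Counts were fitted with edgeR 4.0.16 (R 4.3.3): filterByExpr (minimum count 10, total 15), TMM factors, glmQLFit with robust estimation and glmQLFTest, group being the only term. Benjamini-Hochberg adjustment ran over 19343 genes, two-sided, with a threshold of 0.05. SE is the size of the log2 fold change divided by the square root of the test's F value. Mean log2 CPM of groups of genes used a prior count of 2. The procedure was also run on simulated data, in 3 draws with 200 changed genes each. Far more genes were called in the data, so the simulation cannot speak for the scaling or the calls made here. Countable shares are the bases of the APPRIS principal transcript outside exons of all other genes on either strand. Promoter windows are RefSeq's for GRCh38.p14.

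The members and lists were chosen with earlier results of these data known. Values in every library are given for the 7 core subunits, for the highest and lowest gene of each module and factor group, for the 3 highest and 3 lowest assembly factors and for every tested member not called higher. A gene that this rule takes is not reported here by name, but it is included in counts and medians. NDUFA7, NDUFS5, NDUFB4, TIMMDC1 and the related genes were added after their values were seen. Alternatives were other scaling factors, other filters, another prior count, DESeq2 1.42.0, limma-voom (limma 3.58.1), glmTreat against 1.5-fold, the median in place of the mean over members, a block for the replicate number, and leaving out each library. Limiting the comparison to members at least 90% countable, and leaving NDUFA11 out of ND2, were chosen after seeing the data.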

Additional observations from a re-analysis of the deposited data

How the results depend on the processing

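The number of complex I genes called higher (50 in the results) stayed between 49 and 51 when each library was left out, and the number called lower (3) was 2 to 3. Over those fits the median log2 fold change was 1.94 to 1.99 for subunits and 0.98 to 1.07 for assembly factors. The levels of all genes shifted with the scaling: the median of all genes moved by -0.33 (log2) with total counts and by -0.13 with upper-quartile factors. The medians moved with it, to 1.64 for subunits and 0.70 for assembly factors with total counts, and to 1.85 and 0.90 with upper-quartile factors. The subunit minus assembly factor difference of 0.70 became 0.83 when the median replaced the mean over members. With members at least 90% countable, the subunit median was 2.03 and 21 subunits were called higher, of the 21 then left. Without NDUFA11 in ND2, the span of the module medians was 0.51 in place of 0.64. NDUFC2 turned to -0.16 (edgeR adjusted p = 0.0419) with total counts. With the replicate number as a block, 50 genes were called higher and 3 lower and the subunit median was 1.97. Same-numbered libraries did not deviate together (correlations of -0.01 to 0.01), so the numbers were not taken to pair the samples.

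NDUFV2, NDUFA7 and NDUFA13 rest on at most 195 counts per library. Reads lost to overlapping genes cannot be recovered from the table, and this limits every level and fold change of a gene with a low countable share.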

Other observations

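The other nuclear-encoded complexes of oxidative phosphorylation rose beside complex I, on lists chosen after results were seen and given without a test. The counts that follow stand beside 40.9% of all genes tested that were called higher. All 13 complex II and III genes were called higher by edgeR, with a median log2 fold change of 2.37 and a range of 1.27 to 3.55. All 11 cytochrome c oxidase genes were called higher, with a median of 2.18 and a range of 1.47 to 3.13. All 15 ATP synthase genes were called higher, with a median of 1.98 and a range of 0.40 to 3.47. The 37 complex I subunits had a median of 1.97.

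The processed pseudogene NDUFV2P1 had more counts than NDUFV2, its parent. It had 133, 131 and 123 counts in the PGC1A libraries, against 44, 60 and 71 in the GFP libraries, and 562 counts in all, against 221 for NDUFV2. Its log2 fold change was 1.44 (SE 0.13, edgeR adjusted p = 1.47e-14), and its groups did not overlap. How reads of the parent and of this copy were divided cannot be read from the table. Among the other members with named pseudogenes, these copies held 0% to 1.97% of the counts of their parents.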
